A study of Mus musculus with 13 samples.

Results

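Fabp4-high preadipocyte-like fibroblasts were the mammary fibroblasts that carried Fabp4 mRNA above a fixed level and little Pi16 mRNA. A barcode was kept as a fibroblast when it had 500 to 7500 detected genes, at most 10% mitochondrial UMIs (unique molecular identifiers, each 1 counted mRNA molecule) and at least 50 UMIs of Dcn, Lum and Col1a2 together per 10000 UMIs, and no UMI of Epcam, Pecam1, Rgs5, Sox10, Ptprc or Myog, which mark epithelial, endothelial, pericyte, Schwann, blood and muscle cells. A fibroblast was then called Fabp4-high when it held at least 5 Fabp4 and under 5 Pi16 UMIs per 10000. This rule took 5962 of 100523 fibroblasts, or 5.93%, from 13 libraries. All other fibroblasts are called the remaining fibroblasts. The cells were thus chosen by their measured Fabp4 and Pi16 values, so the contrast of Fabp4-high with remaining fibroblasts of the same library is given as a description with no test.

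Stromal cells of the mouse mammary gland were profiled in droplets, cell by cell and from the 3′ end of each mRNA, to follow fibroblast states through gland development, hormone stimulation and tumor formation. The stage libraries came from wild-type C57BL/6 females, 1 library for each of puberty (4 weeks), virgin adult (9 weeks), pregnancy (day 14.5), lactation (day 10) and involution (day 4). The hormone libraries came from wild-type C57BL/6 females collected at 9 weeks of age, with 2 libraries from mice carrying placebo pellets and 2 from mice carrying pellets of medroxyprogesterone acetate, a progesterone analog, and estradiol (MPA+E). Both sets were sorted as cells negative for lineage markers and for CD24, and each library pooled 2 females. The raGFP-Wnt1 libraries came from mice of a mixed C57BL/6 and FVB background that were heterozygous for a Pdgfra-GFP knock-in reporter and for an MMTV-Wnt1 transgene. There were 2 libraries of hyperplastic gland and 2 of tumor, and a shared number marks 1 animal, aged 45 weeks (mouse 1) or 17 weeks (mouse 2). These cells were sorted as negative for lineage markers and positive for GFP, so only cells in which the Pdgfra locus had been active were sampled. The transgene is driven by a mammary tumor virus promoter that acts in the epithelium. All 4 raGFP-Wnt1 libraries carried the reporter and the transgene, so strain, reporter, sort and age cannot be told apart from condition when these libraries are set beside the wild-type ones. Nothing in the labels gives an extraction or sequencing batch, and the p-values below measure only the spread between these libraries.

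Preadipocytes are fibroblast-like cells that have committed to the fat lineage but hold no lipid store. Pparg, a nuclear receptor, is the central transcription factor of fat cell formation, and it drives genes of lipid handling such as Fabp4, a cytoplasmic carrier of fatty acids, Cd36, a membrane receptor for fatty acids, and Lpl, the secreted lipase that frees fatty acids from circulating lipoproteins. In fat depots such cells are thought to arise from Dpp4- and Pi16-bearing progenitors, and in the mammary gland they lie within the fat pad that the epithelium grows into and that loses lipid in lactation and regains it in involution. Fabp4 and Cd36 are also abundant in capillary endothelium, and Fabp4 in mature adipocytes, so markers of these cells are given beside the results.

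Fabp4-high cells were present in all 13 libraries, and their share of fibroblasts was lowest in the tumor libraries, while the order of the libraries with high shares moved with the threshold and depth. Among the stages they were 8.40% of fibroblasts in puberty (598 cells, 95% exact binomial interval 7.76 to 9.07%), 8.40% in the adult (1004 cells, 7.91 to 8.91%) and 7.67% in pregnancy (882 cells, 7.19 to 8.17%). Lactation stood lower at 4.80% (406 cells, 4.36 to 5.28%) and involution was at 8.35% (824 cells, 7.82 to 8.92%). At 10 Fabp4 UMIs per 10000 involution was at 4.16%, below pregnancy (5.29%), adult (5.96%) and puberty (6.52%). The lactation interval at the threshold of 5 lay below those of the other 4 stages, but with 1 library a stage this compares libraries and not stages. All such intervals hold for counting error alone. The share was 6.65% and 7.33% with placebo (322 and 422 cells). With MPA+E it was 2.97% and 3.37% (153 and 293 cells). Both MPA+E libraries lay below both placebo libraries, with means of 6.99% ± 0.479 (SD, n = 2) for placebo and 3.17% ± 0.282 (SD, n = 2) for MPA+E. It was 3.59% and 8.29% in hyperplasia (217 and 662 cells) and 1.55% and 0.968% in tumor (138 and 41 cells). Each tumor lay below the hyperplasia of its own mouse, and the hyperplasia mean was 5.94% ± 3.32 (SD, n = 2) against 1.26% ± 0.410 (SD, n = 2) in tumor. The exact two-sided permutation test over libraries gave p = 0.33 for both pairs of groups, the smallest value that 2 against 2 libraries can give. For hyperplasia and tumor it did not use the pairing of libraries by mouse.

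The Fabp4 threshold is a rate per cell, so depth can move a share. Fibroblasts were deepest in tumor 2 and shallowest in pregnancy, at a median of 20244 and 3924 UMIs per remaining fibroblast. Fabp4-high cells held more UMIs than the remaining fibroblasts in every library (median 4860.0 to 22430.0 UMIs). Each cell was therefore also thinned to 4000 UMIs, and shallower cells were left out. This kept 5637 of 7121 fibroblasts in puberty, 5723 of 11501 in pregnancy and 7235 of 7984 in hyperplasia 2. The thinned shares were 7.53% and 7.88% with placebo against 3.66% and 4.08% with MPA+E. They were 5.25% and 9.88% in hyperplasia against 2.23% and 1.18% in tumor, so the groups stayed apart. Pregnancy moved to 11.7%, and its cells with at least 4000 UMIs stood at 10.96% before thinning, so most of the move came with leaving out shallow cells. It then lay above puberty (9.58%), adult (9.76%) and involution (10.4%), and lactation stayed lowest of the stages at 6.31%. Within Fabp4-high cells the median Fabp4 level was 19.7 per 10000 UMIs in puberty and 17.2 in the adult against 9.22 in lactation and 9.93 in involution. It was 7.56 and 8.75 in the tumor libraries and 8.38 and 12.1 in hyperplasia, so the Fabp4-high cells of tumor 1, tumor 2 and hyperplasia 1 lay closest to the threshold. With placebo this median was 13.8 and 16.3, and with MPA+E 11.3 and 10.3. Pairs of libraries shared 5 to 51 cell barcodes, and at most 1 of them was Fabp4-high in both.

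**Figure D1:**
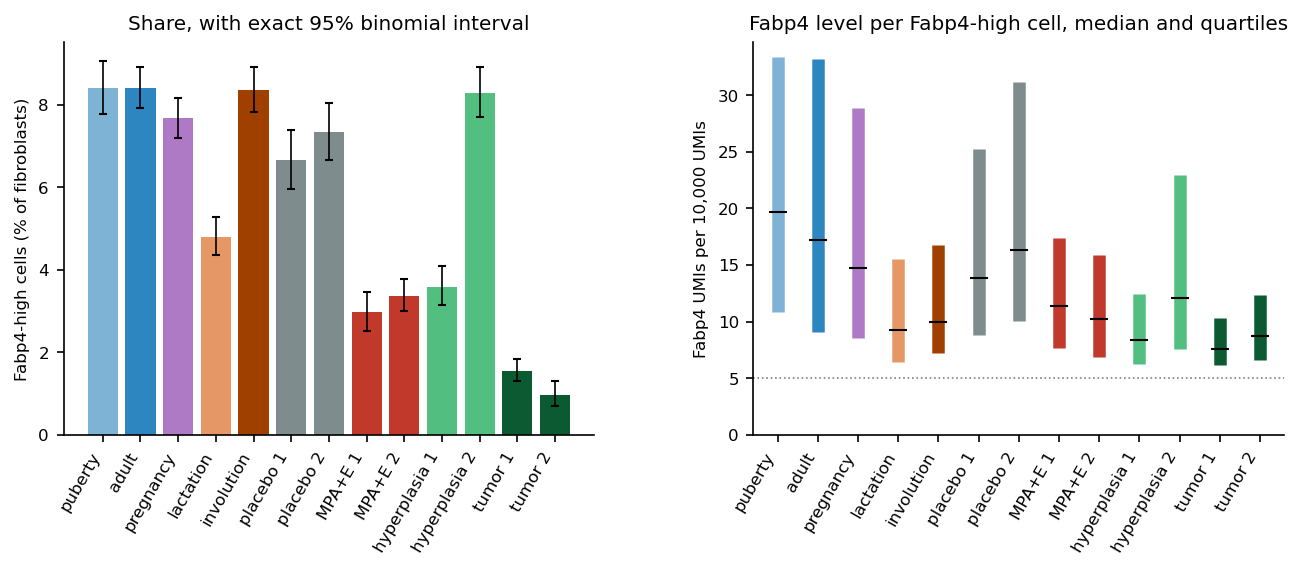
Left, Fabp4-high cells as a percent of fibroblasts in each of the 13 libraries (bars, colored by group) with exact 95% binomial intervals. Right, Fabp4 UMIs per 10000 UMIs in Fabp4-high cells, with the median (black tick) and the quartiles (colored line) per library, and the threshold of 5 dotted. Both MPA+E bars stand below both placebo bars and both tumor bars below both hyperplasia bars, and the median Fabp4 level runs from 7.56 in tumor 1 to 19.7 in puberty.

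Free RNA in droplets can give a UMI to a cell that does not express the gene. Epithelial and Schwann cells should lack Fabp4. Here they were taken by an Epcam or a Sox10 UMI, with no limit on Dcn, Lum and Col1a2. Fibroblasts with a stray UMI of these genes can be among them, so their share is not one of free RNA alone. At 5 or more Fabp4 UMIs per 10000, with no limit on Pi16, stood 31 of 1250 cells with an Epcam UMI (2.48%, 95% interval 1.69 to 3.50%) and 4 of 295 cells with a Sox10 UMI (1.36%, 0.371 to 3.44%). The same level was reached by 6577 of 100523 fibroblasts (6.54%, 6.39 to 6.70%) and by 822 of 2358 cells with a Pecam1 UMI (34.9%, 32.9 to 36.8%). The median depth per library was 4332 to 16911 UMIs in the Epcam-bearing cells and 3990.0 to 20256 UMIs in fibroblasts. Within tumor 1, 1 of 43 Epcam-bearing cells (2.33%) reached it against 151 of 8917 fibroblasts (1.69%), so in that library the 2 shares were not told apart. In tumor 2 it was 0 of 175 Epcam-bearing cells (up to 2.09% by the exact interval) and 42 of 4236 fibroblasts (0.992%). In MPA+E it was 1 of 40 and 1 of 72 Epcam-bearing cells, whose intervals (0.0633 to 13.2% and 0.0352 to 7.50%) span the fibroblast shares of 3.14% and 4.04%. The highest Epcam-bearing shares were in the adult (4 of 47, 8.51%, 2.37 to 20.4%) and placebo 2 (8 of 125, 2.80 to 12.2%), whose intervals also span the fibroblast shares of 9.25% and 8.25%. The fibroblast share lay above the Epcam-bearing interval of the same library in pregnancy (8.67% against 1.26 to 3.98%) and hyperplasia 2 (8.57% against 0.551 to 7.56%). In each other library that interval reached the fibroblast share, so at this number of Epcam-bearing cells the 2 were not told apart.

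The levels of lipid-handling genes were graded with the Fabp4 level on both sides of the threshold. Among fibroblasts under the Pi16 limit, the median over libraries of Lpl ran from 775 CPM (UMIs of a gene per 1000000 UMIs summed over the cells) in cells without a Fabp4 UMI to 1649.5 CPM at 2.5 to under 5 Fabp4 UMIs per 10000, 2034 CPM at 5 to under 10 and 3801 CPM at 50 and over. Cd36 ran from 2.37 CPM through 21.7 and 48.2 CPM to 302 CPM over the same bins, and Pparg from 10.9 CPM through 39.2 and 45.4 CPM to 66.7 CPM. The medians of Lpl and Cd36 were thus higher in each higher bin. They are over the libraries with at least 20 cells in a bin, which were 13 up to the threshold, 10 at 20 to under 50 and 6 at 50 and over. Within libraries Cd36 fell between 2 neighbouring bins in involution, placebo 2, pregnancy and both tumors, and Lpl in MPA+E 2 (1489 to 1483 CPM). Pparg, between the last 2 bins, was higher in the adult (41.8 to 59.4 CPM) and pregnancy (27.9 to 30.4 CPM) and lower in the other 4 libraries with enough cells. Just outside the threshold, 826 cells had 4 to under 5 Fabp4 UMIs per 10000, and just inside, 643 cells had 5 to under 6. The medians over 12 libraries, outside and inside, were 1962 and 1815 CPM for Lpl, 29.2 and 45.2 CPM for Cd36, 38.1 and 41.8 CPM for Pparg, 28.9 and 27.2 CPM for Fabp5 and 93.0 and 121.5 CPM for Aoc3. Of the 5962 members, 125 passed with a single Fabp4 UMI, 3698 had at least 10 Fabp4 UMIs per 10000 and 426 had at least 50. A further 615 fibroblasts reached the Fabp4 level but had 5 or more Pi16 UMIs per 10000 and were counted with the remaining cells.

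**Figure D2:**
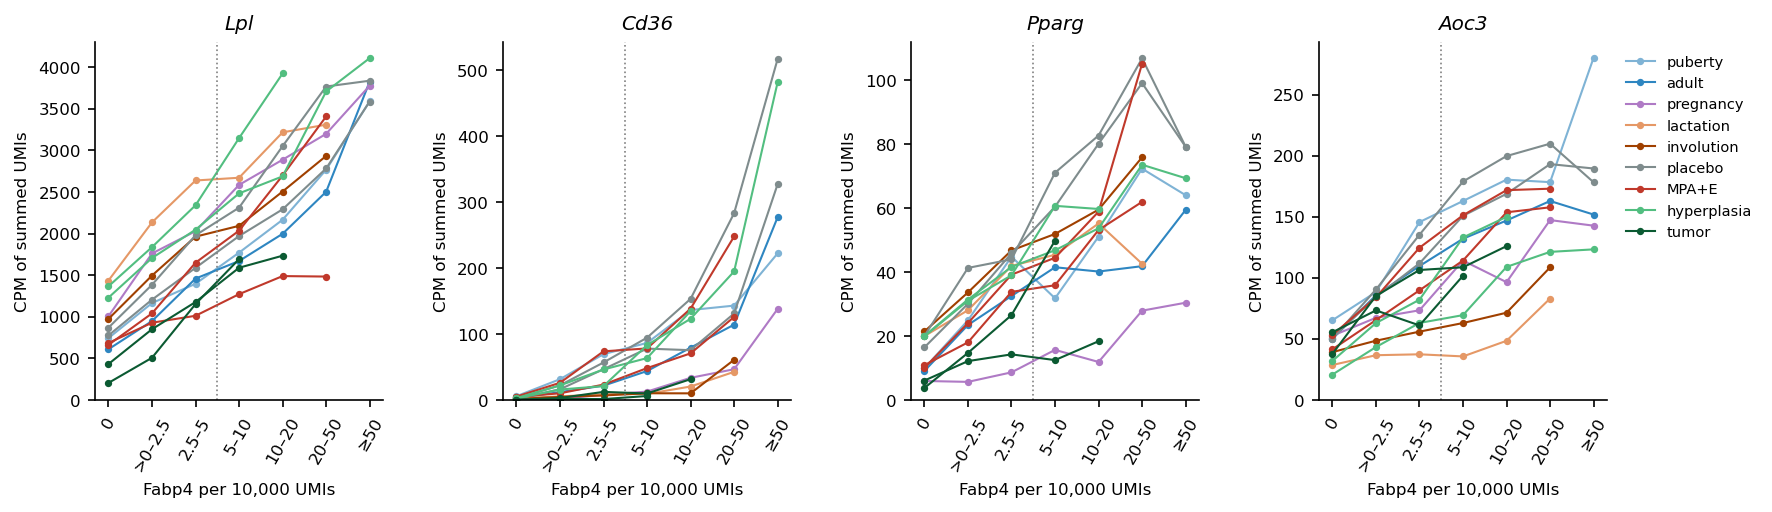
CPM of summed UMIs (y axis) of Lpl, Cd36, Pparg and Aoc3 in 7 bins of Fabp4 UMIs per 10000 (x axis) among fibroblasts with under 5 Pi16 UMIs per 10000. Each line is a library, colored by group, bins under 20 cells are not drawn and the dotted line is the threshold. Lpl and Cd36 run upward over the bins, with small falls between neighbouring bins in some libraries, and the Lpl medians in the bins beside the threshold are 1649.5 and 2034 CPM.

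The label was checked against the markers given for it besides Fabp4. Lpl (ENSMUSG00000015568) was 1419 to 3451 CPM in Fabp4-high cells of the 13 libraries and 236 to 1223 CPM in the remaining fibroblasts. Cd36 (ENSMUSG00000002944) was 13.1 to 206 CPM against 0.276 to 7.63 CPM, and Pparg (ENSMUSG00000000440) was 16.3 to 86.3 CPM against 4.15 to 20.5 CPM. All 3 markers were higher in Fabp4-high cells in each of the 12 libraries with at least 50 such cells, by median log2 ratios of 1.86 (Lpl), 4.09 (Cd36) and 2.12 (Pparg), with an offset of 1 CPM added to both sides. Tumor 2, with 41 Fabp4-high cells, was left out of these ratios but had the same direction for all 3. Lpl had a UMI in 66.3 to 93.05% of the remaining fibroblasts too. Cd36 marked a fraction of the Fabp4-high cells. Of these 54.5% had a Cd36 UMI in puberty, 61.2% in placebo 1 and 6.52% in tumor 1, against 2.71%, 2.92% and 0.387% of the remaining fibroblasts. In other stages the part with a Cd36 UMI was small near the threshold. The bin just above it held 17 Cd36 UMIs in 274 cells in pregnancy, 16 in 213 in lactation and 33 in 414 in involution. The next bin held 48 in 287, 21 in 125 and 21 in 254. Most cells of these bins thus had no Cd36 UMI in those stages.

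Across 5154 genes with at least 20 CPM in the higher class in at least 10 libraries, 63 (1.22%) had a median log2 ratio of 1 or more and 149 (2.89%) of -1 or less, while 317 (6.15%) were higher and 457 (8.87%) lower in Fabp4-high cells of all 12 libraries. Of 18 genes known from committed preadipocytes, 16 were expressed at that level, and 10 of the 16 had a median log2 ratio of 1 or more. These were Cd36, Pparg, Lpl, Aoc3 (a copper amine oxidase, also called vascular adhesion protein), Col18a1, Sparcl1 (a secreted relative of SPARC), Plin2 (a coat protein of lipid droplets), Col4a1, Col4a2 and Icam1 (an adhesion receptor used to sort committed preadipocytes). The median over the 16 was 1.24. Aoc3 was 47.8 to 195 CPM in Fabp4-high and 18.2 to 53.1 CPM in remaining fibroblasts, and Icam1 was 96.7 to 604 CPM against 55.3 to 248 CPM, with MPA+E 1 the library in which Icam1 was not higher (96.7 against 101 CPM). Olfm2, an olfactomedin-family secreted protein that fell short of the expression limit, was higher in all 12 libraries (8.17 to 118 against 1.09 to 12.1 CPM). The list was chosen with earlier results of these data known and carries no test.

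Among lipid genes, a few abundant members stood far higher in Fabp4-high cells, while the median gene of each list had a ratio under 1. Of 9 expressed genes of fatty acid uptake, binding and release, 4 had a median log2 ratio of 1 or more (Cd36, Fabp5, Lpl and Angptl4) and 1 of -1 or less (Mgll), with a list median of 0.16. The 16 listed genes summed to 2491 to 4499 CPM in Fabp4-high and 1296 to 2335 CPM in remaining fibroblasts, higher in all 13 libraries. Fabp5, a sister carrier of Fabp4, was 17.3 to 118 CPM against 7.69 to 51.8 CPM, and Angptl4, a secreted inhibitor of Lpl, had a median ratio of 1.14. Mgll, the lipase that completes the breakdown of stored fat, was 3.79 to 24.9 CPM in Fabp4-high and 48.3 to 144 CPM in remaining fibroblasts, lower in all 12 libraries. Of the 4 expressed genes of triglyceride synthesis and lipid droplets, Plin2 reached 1 (1.35), and the list median was 0.34. The 16 listed genes summed to 322 to 873 CPM in Fabp4-high and 261 to 586 CPM in remaining fibroblasts, higher in all 13 libraries. None of the 10 expressed genes of fatty acid and cholesterol synthesis reached a ratio of 1 in either direction, with a list median of 0.17. Among them Fasn, the fatty acid synthase, had a median ratio of 0.06 and Scd1, the desaturase, of -0.06. Of the 10 expressed adipogenic transcription factors, Pparg reached 1 and the other 9 did not. Cebpa, its partner in fat cell formation, had a median ratio of 0.50 and was higher in all 12 libraries, Cebpb was at 0.12, and Ebf2, a factor of fat cell precursors, was lower in all 12 (-0.63).

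Fgf10, Ptn and Adam12 were among the other genes with the highest median ratios. Fgf10, the fibroblast growth factor that the mammary bud and fat cell precursors depend on, was 19.5 to 348 CPM in Fabp4-high and 3.68 to 32.7 CPM in remaining fibroblasts, with a median log2 ratio of 2.67. Ptn, the heparin-binding growth factor pleiotrophin, stood at 501 CPM in puberty and 11.3 CPM in hyperplasia 2 (2.20, 0.08 to 2.83 over libraries). Adam12, a metalloprotease, had a median ratio of 2.51, Epas1, the oxygen-regulated factor HIF-2α, of 2.08, and Gsc, a homeobox factor, of 1.87. The receptors S1pr3 (sphingosine-1-phosphate) and Ptger3 (prostaglandin E2) had ratios of 1.94 and 1.87, and Ptger3 went the other way in tumor 1 (38.97 against 57.1 CPM). Arc, an immediate-early gene, Cxcl9, an interferon-induced chemokine, and Col18a1, a basement membrane collagen, completed the 15 highest with 1.83, 1.78 and 1.76. Among 13 expressed basement membrane genes, Col18a1, Col4a1 and Col4a2 had ratios of 1 or more and Col4a5 of -1 or less.

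Progenitor and lobular genes were low in Fabp4-high cells, where the Pi16 limit of the rule bears on the result. Of the 10 progenitor genes, all expressed, 8 had a median log2 ratio of -1 or less, with a list median of -2.04. Dpp4, the protease that marks fat cell progenitors, was 15.2 to 151 CPM against 29.9 to 353 CPM, and Sema3c, a secreted semaphorin, had a median ratio of -3.05. All 5 expressed genes of the lobular list were at -1 or less, with a median of -2.59, among them Thbs4, a thrombospondin, at 0 to 47.8 CPM against 15.6 to 418 CPM. The 10 lowest median ratios belonged to Dmkn (-4.36), Il33 (-4.25), Smpd3 (-4.17), Aldh1a3 (-4.13), Akr1c18 (-4.07), Myoc (-3.95), Car8 (-3.84), Limch1 (-3.72), Thbs4 (-3.58) and Ston2 (-3.51). Part of this contrast came with the Pi16-bearing cells. Against remaining fibroblasts without a Pi16 UMI, 24 genes had a ratio of 1 or more and 51 of -1 or less. In that comparison Aldh1a3 and Limch1 turned to 0.09 and 0.33, Smpd3 moved to -0.94 and Akr1c18 to -0.22. Il33, an alarmin cytokine, stayed at -2.20, and Myoc and Thbs4 at -3.15 and -3.03. Among the lipid genes Cd36 was at 3.66, Lpl at 1.25 and Fabp5 at 1.93, and Pparg and Fgf10 were at 1.49 and 2.34.

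**Figure D3:**
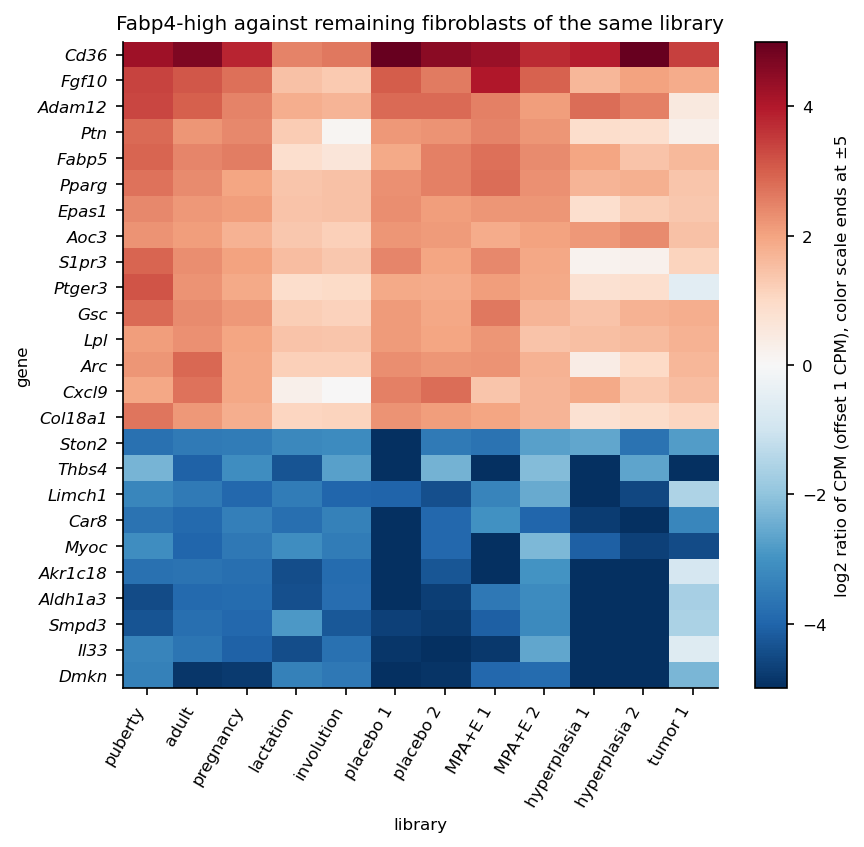
Log2 ratio of CPM in Fabp4-high to remaining fibroblasts (color, offset 1 CPM) for the 15 genes with the highest and 10 with the lowest median ratio (rows) in the 12 libraries with at least 50 Fabp4-high cells (columns). The scale ends at ±5. Cd36 is red in every column (median 4.09), Dmkn blue in every column (median -4.36), and the contrast of Ptn, Arc and Il33 is weaker in some libraries, such as -0.65 for Il33 in tumor 1.

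Transcripts that define mature fat cells summed higher in Fabp4-high than in remaining fibroblasts of every library. Among them Adipoq was near 0 and Lep at 0 in Fabp4-high cells as a class, while Car3 was detected except in hyperplasia 1 and tumor 1. The summed level of 10 mature adipocyte genes was 5.66 to 348 CPM in Fabp4-high and 0.380 to 11.6 CPM in remaining fibroblasts. It was higher in all 13 libraries, with 348 against 11.6 CPM in puberty, 30.03 against 8.83 CPM in involution and 5.66 against 0.951 CPM in tumor 1. Of the 10 genes, 2 to 9 were at 0 in the Fabp4-high cells of a library. Adipoq (adiponectin) was at 0 in 8 of 13 libraries and at most 3.05 CPM, in puberty, but reached 18.0 CPM in 1 library at 50 and more Fabp4 UMIs per 10000 (median 0 over 6 libraries, and at most 0.122 CPM in cells without Fabp4), and Lep (leptin) was at 0 in all 13. Car3, a carbonic anhydrase abundant in fat, made up most of the sum in puberty (321 of 348 CPM), the adult (131 of 144 CPM) and placebo (141 of 153 and 79.2 of 89.9 CPM). It was 0 of 12.5 and 4.48 of 23.6 CPM in hyperplasia and 0 of 5.66 CPM in tumor 1. The 10 endothelial markers summed to 10.1 to 52.4 CPM in Fabp4-high and 16.3 to 58.5 CPM in remaining fibroblasts. At 50 and more Fabp4 UMIs per 10000, over the 6 libraries with enough cells, Cdh5 and Cldn5, which define endothelium, had medians of 0.53 and 0 CPM and highest values of 14.0 and 28.1 CPM. In cells without Fabp4 the highest values over 13 libraries were 2.07 and 0.408 CPM, and the part of endothelial transcripts in the top bin was not tested. Epithelial markers (9 genes) summed to 0 to 35.6 CPM against 2.12 to 82.3 CPM and immune markers (9 genes) to 1.79 to 44.6 CPM against 2.45 to 20.3 CPM. The summed level of 5 Schwann cell markers was 4.76 to 25.3 CPM against 2.31 to 57.5 CPM, and that of 6 muscle markers 1.89 to 24.4 CPM against 2.51 to 9.08 CPM. Milk transcripts (7 genes), a sign of free RNA, summed to 324 CPM in the lactation Fabp4-high cells and 786 CPM in the remaining ones.

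Pericyte and smooth muscle genes were higher in some libraries. The 8 genes summed to 25.1 to 455 CPM in Fabp4-high and 30.8 to 74.6 CPM in remaining fibroblasts, and 0 to 4 of the 8 were at 0. The excess was greatest in the MPA+E libraries (249 and 455 CPM against 30.8 and 30.8 CPM) and smaller in the placebo libraries (139 and 103 against 60.9 and 68.3 CPM) and in pregnancy (110.4 against 70.8 CPM). Notch3, a receptor of mural cells, was higher in Fabp4-high cells in 11 of 12 libraries (3.14 to 49.4 against 1.43 to 9.63 CPM). Myh11, the smooth muscle myosin, reached 319.6 CPM in MPA+E 2. In that library 24.9% of Fabp4-high cells (73 of 293) carried a UMI of Myh11, Des, Mcam or Cnn1, against 3.81% of the remaining fibroblasts, and 22.9% were among the barcodes with the highest Scrublet doublet scores. In the other 12 libraries 0 to 12.2% of Fabp4-high cells carried such a UMI. Hormone values without these cells are given with the hormone results.

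Over the 5 stages Lpl varied little in Fabp4-high cells as a class, whereas Cd36, Fabp5, Ptn and Cebpb varied widely. Lpl was 2468 CPM in puberty, 2341 CPM in the adult, 2965 CPM in pregnancy, 2957 CPM in lactation and 2392 CPM in involution. The Fabp4 level of these cells differed by stage as well. In the bin just above the threshold, Lpl was 1770.4, 1669.7, 2584.5, 2670.4 and 2092.5 CPM in the same order. Among fibroblasts under the Pi16 limit without a Fabp4 UMI it was 743.6, 609.5, 1006, 1435 and 973.8 CPM. Lpl thus differed more by stage at like Fabp4 levels than in the class. Cd36 was 137 CPM (95% interval 127 to 148) in puberty and 109.5 CPM in the adult, then 40.8 CPM in pregnancy, 18.3 CPM in lactation and 21.7 CPM (95% interval 18.3 to 25.6) in involution. In the bin of 20 to under 50 it was 60.9 CPM in involution and 46.5 CPM in pregnancy. Involution was the lower of these stages in the bins between the threshold and 20. Pparg was lowest in pregnancy, at 19.2 CPM (95% interval 15.3 to 23.7), and 43.7 to 59.01 CPM in the other 4 stages. The intervals of Pparg in pregnancy and in each other stage did not overlap. With 1 library a stage there is no test, and these are exact Poisson intervals of the UMI counts. Among fibroblasts under the Pi16 limit without a Fabp4 UMI, Pparg was lowest in pregnancy too, at 5.94 CPM against 9.08 to 21.4 CPM in the other stages.

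Several genes separated the first 3 stages from the last 2. Fabp5 was 118, 83.2 and 111 CPM in puberty, adult and pregnancy against 24.1 and 17.3 CPM in lactation and involution. Ptn was 501, 218 and 324 CPM against 34.4 and 17.7 CPM. Cebpb, an early factor of fat cell formation that also responds to stress, was 49.97, 64.8 and 64.6 CPM against 713 and 1009 CPM. The remaining fibroblasts held a like step in Cebpb, with 46.8 CPM in pregnancy and 529 CPM in lactation. Itgbl1, a secreted integrin-like protein, was 229.9 and 214 CPM in lactation and involution and at most 28.5 CPM before. Plau, the urokinase protease, was 186 and 171 CPM against at most 8.90 CPM, and Ccn2, a matrix-associated growth factor, 98.97 and 169.7 CPM against at most 10.7 CPM. Cebpb, Itgbl1, Plau and Ccn2 were thus low in each of the first 3 libraries and high in both later ones, and Fabp5 and Ptn the reverse. Lox, a collagen cross-linking enzyme, ran from 102 CPM in the adult to 1031 CPM in involution.

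Other genes picked out a single stage. Chchd10, a mitochondrial protein, was 119 CPM (95% interval 110.5 to 127) in involution and 0.431 to 12.2 CPM elsewhere. Mlana, Mmp11 (a matrix metalloprotease) and Ctla2a had their highest levels in involution too, at 115, 164 and 144 CPM. Ctla2a has a near-identical copy, so its level is uncertain. Mgp, the matrix Gla protein, was 77.7 CPM in the adult and 5196 CPM in involution. The 10 matrix remodelling genes, Mgp and Lox among them, summed to 4485 CPM in the adult and 13154 CPM in involution. In the remaining fibroblasts they summed to 2226 and 10045 CPM, so a step in this sum was not particular to Fabp4-high cells. Ngfr, the nerve growth factor receptor, was highest in puberty (77.9 CPM) and lowest in lactation (0.914 CPM), and Cxcl10, an interferon-induced chemokine, was 1245 CPM in puberty and 49.3 CPM in lactation. Cycling genes were highest in puberty, where Mki67 and Top2a were 23.8 and 25.96 CPM in Fabp4-high cells against 9.63 and 13.8 CPM in the remaining ones. In lactation neither had a UMI in the Fabp4-high cells, which allows up to 1.12 CPM by the exact interval. Of 3193 genes with enough UMIs, 1014 (31.8%) differed by a ratio of 2 or more between the highest and the lowest stage. The heat shock gene Hspa1a, which tissue dissociation can raise, was 737 and 776 CPM in lactation and involution against 77.8 to 328 CPM before, and its part in the stage differences was not tested.

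The placebo and MPA+E libraries address how Fabp4-high cells respond to a progesterone analog and estradiol. Greb1 and Esr1 stood far apart between the arms, but with 2 libraries an arm no gene passed edgeR's test across all genes. Greb1, an early target of the estrogen receptor, was 3.45 and 2.002 CPM with placebo and 23.6 and 39.6 CPM with MPA+E, and Esr1, the estrogen receptor itself, was 49.98 and 43.9 CPM with placebo and 8.38 and 13.1 CPM with MPA+E. The arms did not overlap for either, with a log2 fold change of 3.54 (SE 0.41) for Greb1 and -2.12 (SE 0.25) for Esr1. The adjusted p was 0.122 for both in edgeR's quasi-likelihood test with Benjamini-Hochberg adjustment over 11127 genes. Pgr, the progesterone receptor, was 0.658 and 0.616 CPM with placebo and 2.28 and 17.6 CPM with MPA+E, so only MPA+E 2, the library with the most smooth muscle UMIs, stood far apart and the other 3 libraries held few UMIs of it. Of the 11127 genes tested, edgeR called 0 (0%) at an adjusted p under 0.05, limma-voom called 0 and DESeq2 called 136 higher and 21 lower, while 1058 genes had an unadjusted p under 0.05 in edgeR. The count of 0 depended on the libraries and the fit, with 347 higher and 53 lower without MPA+E 1, 71 and 47 without MPA+E 2 and 368 and 210 with the replicate number as a block. The sums of the remaining fibroblasts held 63381800 to 87805908 UMIs a library against 2626213 to 6492972 in Fabp4-high cells, so counts of calls in the classes are not of like depth. In the remaining fibroblasts the same test called 759 of 15525 genes (4.89%), 449 higher (2.89%) and 310 lower (1.997%), and Greb1 stood at 6.28 and 7.30 CPM with placebo and 107 and 92.6 CPM with MPA+E there. Without placebo 1 these counts were 18 and 3, and without placebo 2 they were 0 and 0.

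Because edgeR and limma-voom made no call on the 4 libraries in the main setting, gene groups are described by whether the libraries of the arms were apart, which 20.2% of all genes were with MPA+E higher and 15.04% with MPA+E lower. Of 10 steroid response genes, 2 were apart and higher (Pgr and Greb1) and 2 apart and lower (Esr1 and Fkbp5), with a median log2 fold change of 0.20. Of 18 committed preadipocyte genes tested, 6 were apart and lower with MPA+E (Acvr2a, Pparg, Ntf3, Olfm2, Icam1 and Aoc3) and 1 was apart and higher (Bst2), with a median log2 fold change of -0.19 against -0.01 over all genes. The median Fabp4 level of the cells was lower with MPA+E too, and its part in these values was not tested. In the bin just above the Fabp4 threshold Aoc3 overlapped (178.8 and 150.7 CPM with placebo, 151.1 and 114.1 CPM with MPA+E). Pparg was apart there (71.1 and 60.4 CPM with placebo, 44.5 and 35.9 CPM with MPA+E). The next bin gave the same, and the one after it the reverse for both genes. Icam1 was 339 and 256 CPM with placebo and 96.7 and 101 CPM with MPA+E (adjusted p = 0.111, log2 fold change -1.61 with SE 0.17). Acvr2a, an activin receptor, was 98.97 and 68.1 CPM with placebo and 36.2 and 32.8 CPM with MPA+E (log2 fold change -1.30, adjusted p = 0.139). Pparg was 86.3 and 81.9 CPM with placebo and 67.8 and 47.1 CPM with MPA+E (log2 fold change -0.60, adjusted p = 0.320). Bst2, an interferon-induced membrane protein, was 314 and 217 CPM with placebo and 578 and 765 CPM with MPA+E. Of 11 immediate-early and heat shock genes, which tissue dissociation can raise, 6 were apart and lower (Atf3, Jun, Ier2, Junb, Fos and Egr1) and 3 apart and higher (Nr4a1, Hspa1a and Hspa1b). The 11 summed to 32567 and 30148 CPM with placebo and 25265 and 29009 CPM with MPA+E, and their part in the other values was not tested.

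Lpl and Cd36 overlapped between the arms. Lpl was 3121 and 2537 CPM with placebo and 2669 and 1419 CPM with MPA+E. Cd36 was 206 and 124 CPM with placebo and 172 and 74.8 CPM with MPA+E. MPA+E 1 lay between the placebo libraries for both and MPA+E 2 below them. Of the 15 genes of fatty acid uptake, binding and release tested, 4 were apart and higher (Mgll, Lipe, Pnpla2 and Lipa) and 0 apart and lower. None of them was called, and of all genes 20.2% were apart and higher and 15.04% apart and lower. Of 12 genes of fatty acid and cholesterol synthesis, 1 was apart and higher (Me1) and 3 apart and lower (Acly, Fasn and Scd1). In the insulin and growth factor list (11 tested), 5 genes were apart and higher and 2 apart and lower. The growth factor Igf1 was 170.0 and 156 CPM with placebo and 90.6 and 62.6 CPM with MPA+E. Igfbp3, its binding protein, was 39.3 and 71.2 CPM with placebo and 17.9 and 13.7 CPM with MPA+E, so both were lower in the 2 MPA+E libraries. Igfbp4, another binding protein, was 285 and 304 CPM with placebo and 585 and 532 CPM with MPA+E. All 7 cycling genes tested were apart and lower, with Mki67 at 10.9 and 11.2 CPM with placebo and 1.90 and 1.79 CPM with MPA+E.

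Contractile genes had higher values with MPA+E. All 8 myofibroblastic genes were apart and higher (median log2 fold change 1.69), and so were 5 of 6 pericyte and smooth muscle genes tested (Des, Mcam, Cspg4, Myh11 and Notch3), with a median of 1.39. The sixth, Abcc9, was apart and lower. Acta2, the smooth muscle actin, was 141 and 130.0 CPM with placebo and 270.0 and 629 CPM with MPA+E. The summed markers of this other cell type differed with the arms and were highest in MPA+E 2, where 24.9% of Fabp4-high cells carried a smooth muscle UMI. The contractile values above include such cells, and no contractile gene is among the values given below without them. Without the cells that held a UMI of Myh11, Des, Mcam or Cnn1, an alternative chosen after seeing the data, the log2 fold changes were 3.44 for Greb1, -2.34 for Esr1, -1.54 for Icam1, -1.29 for Igf1 and -0.46 for Pparg, and 1 gene was called higher and 0 lower. The share of Fabp4-high cells without them was 6.77% ± 0.460 (SD, n = 2) with placebo and 2.72% ± 0.0968 (SD, n = 2) with MPA+E.

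**Figure D4:**
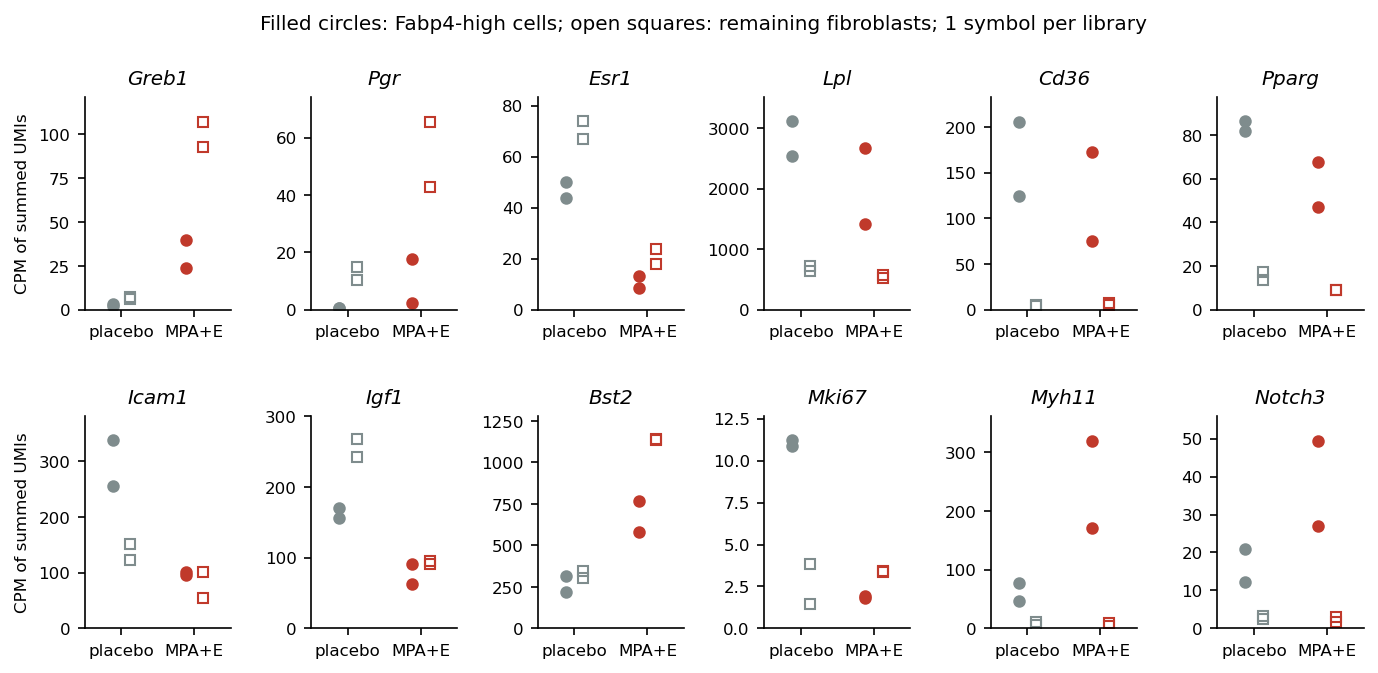
CPM of summed UMIs (y axis) of 12 genes in the 2 placebo and 2 MPA+E libraries (x axis), with 1 filled circle per library for Fabp4-high cells and 1 open square for the remaining fibroblasts. Greb1 is higher and Esr1 lower with MPA+E in both classes, Lpl and Cd36 overlap between arms in Fabp4-high cells, and Myh11 is highest in the Fabp4-high cells of MPA+E 2 at 319.6 CPM.

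Whether Fabp4-high cells answered differently from the other fibroblasts of the same libraries was tested as an interaction of cell class and treatment with the library as a block. The response differed for 226 of 15178 genes (1.49%), with the log2 hormone effect more positive in Fabp4-high cells for 128 (0.843%) and more negative for 98 (0.646%). Basement membrane collagens were among them. Col4a1 was 2441 and 1925 CPM with placebo and 2624 and 1859 CPM with MPA+E in Fabp4-high cells, where the arms overlapped. In the remaining fibroblasts it was 725 and 626 CPM with placebo and 1394 and 1042 CPM with MPA+E, higher in both MPA+E libraries (difference of the log2 effects -0.86, SE 0.10, adjusted p = 0.00614). Col4a2 (difference -0.71, adjusted p = 0.0153) and Col15a1 (-0.59, adjusted p = 0.0413) differed in the same direction, and with Olfm2 made 4 of 18 committed preadipocyte genes. Fkbp5, a classical target of steroid receptors, was 16.1 and 15.6 CPM with placebo and 12.2 and 15.5 CPM with MPA+E in Fabp4-high cells. It was 14.1 and 14.98 CPM with placebo and 36.4 and 31.8 CPM with MPA+E in the remaining ones (difference -1.44, adjusted p = 0.0153). The differences for Greb1 (-0.35, SE 0.46, adjusted p = 0.822) and Pgr (1.87, SE 0.78, adjusted p = 0.355) did not pass.

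The largest negative differences included Ifi44 and the class I genes H2-Q6 and H2-Q7. Ifi44, an interferon-induced gene, was 23.3 and 11.9 CPM with placebo and 55.97 and 92.3 CPM with MPA+E in Fabp4-high cells. It was 6.85 and 3.70 CPM with placebo and 106 and 99.4 CPM with MPA+E in remaining fibroblasts, so it was higher with MPA+E in both classes and by more in the remaining ones (difference -2.24, adjusted p = 0.00812). H2-Q7, a class I histocompatibility gene, had a difference of -2.19 (adjusted p = 3.15e-04), as did H2-Q6 with -2.73 (adjusted p = 0.00142), and as near-identical copies they share reads, so their separate levels are uncertain. Tgm2 (a transglutaminase, -2.37), Mmp11 (-2.28) and Lipg (endothelial lipase, -1.86) completed the 6 largest negative differences. The 6 largest positive ones were Dmkn (3.59), Tnc (tenascin C, 3.04), Igfbp2 (3.0), Sema3d (2.94), Xirp1 (2.81) and Ntn4 (netrin 4, 2.76). Dmkn had 0 and 0.308 CPM with placebo in Fabp4-high cells, so its value rests on few UMIs. Ntn4 was 5.59 and 4.16 CPM with placebo and 20.2 and 32.5 CPM with MPA+E in Fabp4-high cells. It was 33.1 and 30.6 CPM with placebo and 26.6 and 23.9 CPM with MPA+E in the remaining ones, so the 2 classes went in opposite directions. Cycling genes differed too (Mki67, Top2a and Cenpf, 3 of 8), with Mki67 at -3.09 (adjusted p = 0.0409). Without cells holding a smooth muscle UMI, 57 genes were more positive and 60 more negative, 105 of them shared with the first set. Col4a1 (-0.78, adjusted p = 0.0126), Fkbp5 (-1.42, adjusted p = 0.0195), Ifi44 (-2.23, adjusted p = 0.00264) and Ntn4 (2.64, adjusted p = 0.00445) passed there, while Dmkn (0.101), Igfbp2 (0.272) and Col15a1 (0.0826) did not by their adjusted p. Without MPA+E 1 the counts were 663 and 317, and without MPA+E 2 they were 279 and 453, with Igfbp2 no longer called (1.81, adjusted p = 0.493). Tnc, called throughout, was 1.81 without MPA+E 1 and 3.88 without MPA+E 2. Without placebo 2 no fold is given for Dmkn, which is at 0 in placebo 1.

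Hyperplastic glands were set beside the normal puberty and adult libraries to ask how Fabp4-high cells differ in a Wnt1-driven hyperplasia. Lpl, Cd36 and Pparg did not pass the test, while genes of matrix, transcription factors and immediate-early response did. Lpl was 2468 and 2341 CPM in normal and 3451 and 2978 CPM in hyperplasia libraries (log2 fold change 0.37, SE 0.18, adjusted p = 0.176). Cd36 was 137 and 109.5 CPM in normal and 99.9 and 154 CPM in hyperplasia libraries (log2 fold change -0.02, adjusted p = 0.955). Pparg was 56.5 and 43.7 CPM in normal and 60.9 and 57.3 CPM in hyperplasia libraries (log2 fold change 0.21, adjusted p = 0.503). The normal and hyperplasia libraries overlapped for Cd36, and were apart by less than 1 CPM for Pparg. The test was limma-voom over 12090 genes on puberty, adult, hyperplasia 1 and 2 and tumor 1, with tumor 2 left out for its 41 cells, and normal stands for puberty and adult. It called 2058 genes (17.02%), 1009 higher (8.35%) and 1049 lower (8.68%) in hyperplasia. These counts include differences of strain, reporter, sort and age, which cannot be told apart from hyperplasia, and the 2 normal libraries were of different stages. They were 831 and 629 with tumor 2 kept, 476 and 303 without hyperplasia 1 and 352 and 164 without hyperplasia 2.

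Of 18 committed preadipocyte genes, 4 rose (Acvr2a, Sparcl1, Ntf3 and Pdgfrb) and 2 fell (Bst2 and Col18a1), with a median log2 fold change of 0.45 against -0.01 over all genes. Sparcl1 was 323 and 475 CPM in normal and 1349 and 2130.5 CPM in hyperplasia libraries (log2 fold change 2.08, adjusted p = 0.00276). Ntf3, the neurotrophin 3 gene, was 26.4 and 24.9 CPM in normal and 51.9 and 50.7 CPM in hyperplasia libraries (log2 fold change 0.96, adjusted p = 0.0143). Bst2 was 305 and 321 CPM in normal and 123 and 117 CPM in hyperplasia libraries (log2 fold change -1.42, adjusted p = 0.00294). Of 14 adipogenic transcription factors, 3 rose (Cebpa, Cebpb and Klf4) and 2 fell (Cebpd and Klf5). Cebpb was 49.97 and 64.8 CPM in normal and 912 and 918 CPM in hyperplasia libraries (log2 fold change 3.96, adjusted p = 8.35e-05). Cebpa was 22.04 and 14.1 CPM in normal and 53.1 and 43.9 CPM in hyperplasia libraries (log2 fold change 1.42, adjusted p = 0.0113). Cebpb stood at 56.3 and 60.4 CPM in remaining fibroblasts of the normal libraries and 1139 and 972 CPM in those of hyperplasia, a like step. The same library sets differed in immediate-early genes, which tissue dissociation can raise: 7 of 11 were higher in hyperplasia and 0 lower, and the 11 summed to 21507 and 25351 CPM in the normal libraries and 52243 and 48429 CPM in hyperplasia. Their part in the values of Cebpb and Klf4 was not tested.

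Among lipid genes, Fabp5 fell, with 118 and 83.2 CPM in normal and 39.03 and 23.9 CPM in hyperplasia libraries (log2 fold change -1.80, adjusted p = 0.00712). Of 15 genes of fatty acid uptake, binding and release, 2 rose (Lrp1 and Lipa) and 2 fell (Fabp5 and Mgll). Of 14 genes of triglyceride synthesis and lipid droplets, 2 rose (G0s2, an inhibitor of lipolysis, and Lpin1) and Agpat2, an acyltransferase, fell. Of 12 genes of fatty acid and cholesterol synthesis, 0 rose and 2 fell (Elovl6 and Scd1). Over the 3 lists together these counts are near the shares of all genes called higher (8.35%) and lower (8.68%). Scd1 was 100.4 and 68.1 CPM in normal and 40.98 and 31.8 CPM in hyperplasia libraries (log2 fold change -1.26, adjusted p = 0.0151). Of 9 matrix remodelling genes tested, 6 rose (Tnc, Mgp, Crabp1, Enpp2, Pla2g7 and Lox) and Postn fell, with a list median of 1.80. The 10 listed genes summed to 3956 and 4485 CPM in puberty and adult and 4192 to 5082 CPM in hyperplasia, so the sums overlapped. In the remaining fibroblasts they summed to 2618 and 2226 CPM in puberty and adult and 4321 to 5765 CPM in hyperplasia. Lox was 161 and 102 CPM in normal and 402 and 396 CPM in hyperplasia libraries (log2 fold change 1.59, adjusted p = 0.00554). Enpp2, the enzyme that makes lysophosphatidic acid, was 107 and 148 CPM in normal and 436 and 466 CPM in hyperplasia libraries (log2 fold change 1.80, adjusted p = 0.00212). Genes of the steroid list that rose included Hsd11b1, which regenerates active glucocorticoid, and Tsc22d3, a glucocorticoid target. Hsd11b1 was 17.9 and 73.00 CPM in normal and 274 and 374 CPM in hyperplasia libraries (log2 fold change 3.07, adjusted p = 0.00799). Igf1 fell, with 279 and 178 CPM in normal and 131 and 86.8 CPM in hyperplasia libraries (log2 fold change -1.10, adjusted p = 0.0322). Ghr, the growth hormone receptor, rose, with 41.5 and 22.1 CPM in normal and 70.6 and 71.2 CPM in hyperplasia libraries (log2 fold change 1.21, adjusted p = 0.0238).

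The largest rises among genes past the test were Ifi202b, Gdpd3, C1rb, Pianp, C1s2, Bmp4, Csprs and Plau. Several of them had few UMIs in the 2 normal libraries, and no fold is given for those. Ifi202b, an interferon-inducible gene of DNA sensing, was 0.655 and 0 CPM in normal and 121 and 92.8 CPM in hyperplasia libraries (adjusted p = 0.00388). C1rb, a complement protease gene, was 0.218 and 0.575 CPM in normal and 56.6 and 59.7 CPM in hyperplasia libraries (adjusted p = 0.00163). Bmp4, a bone morphogenetic protein, was 2.40 and 0.287 CPM in normal and 37.5 and 32.97 CPM in hyperplasia libraries (log2 fold change 5.45, adjusted p = 0.00386, and 3.76 without the adult), and Plau was 6.33 and 5.03 CPM in normal and 97.97 and 105 CPM in hyperplasia libraries (log2 fold change 4.14, adjusted p = 1.42e-04). Ifi202b, C1rb and C1s2 have near-identical copies, so their own levels are uncertain, and all 3 were also higher in the remaining fibroblasts of hyperplasia, as in 0.136 and 0.164 CPM against 131 and 104 CPM for Ifi202b. The largest falls on the log2 scale were Car3 (-6.84), Acta2 (-6.11), Ifi44, Tagln (-5.65), Rsad2 (-5.51), Myh11 (-4.63), Thbs4 (-4.55) and Ptn (-4.04). Leaving out 1 library moved several of these, to -3.38 for Rsad2 without hyperplasia 2, and over a range of -5.61 to -3.84 for Thbs4 and -4.89 to -2.69 for Ptn. Car3 was at 0 in hyperplasia 1, so no fold is given without hyperplasia 2. Without that library the adjusted p was 0.0930 for Car3, 0.0679 for Ifi44, 0.0589 for Myh11 and 0.277 for Thbs4, and without hyperplasia 1 it was 0.0526 for Thbs4. Rsad2 and Ifi44 are interferon-induced genes, with Rsad2 at 71.3 and 48.7 CPM in normal and 5.46 and 0.746 CPM in hyperplasia libraries. Ifi44 had 3 UMIs in hyperplasia, so no fold is given. Car3 belongs to the mature adipocyte list, which summed to 348 and 144 CPM in puberty and adult and 12.5 and 23.6 CPM in hyperplasia, with Adipoq at 0 in both hyperplasia libraries. Its part in other values was not tested. Without cells holding a UMI of Myh11, Des, Mcam or Cnn1 the log2 fold change of Acta2 was -3.13 with adjusted p = 0.0505 in limma-voom, while Tagln kept -4.41 with adjusted p = 0.00275.

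In tumor 1, 7 of 18 committed preadipocyte genes fell and 5 of 7 myofibroblastic genes rose against hyperplasia. This comparison rests on tumor 1, whose 138 Fabp4-high cells form the tumor arm of the test and are assumed to vary between libraries like the others, and the 41 cells of tumor 2 are given beside it. Its controls are the hyperplasia libraries already compared with the normal ones. In limma-voom 449 of 12090 genes passed (3.71%), 340 higher (2.81%) and 109 lower (0.902%) in tumor 1. With the mouse as a block and both tumors kept, on the 4 raGFP-Wnt1 libraries, 810 were higher and 504 lower, against 154 and 97 on the same 4 libraries without the block. The counts were 986 and 335 without the adult, 692 and 258 without puberty and 65 and 28 without hyperplasia 2. The 7 preadipocyte genes that fell were Cd36, Sparcl1, Pparg, Ntf3, Col4a1, Col4a2 and Olfm2. None rose, and the list had a median log2 fold change of -0.89 against 0.01 over all genes. Without hyperplasia 2 the calls of Pparg (adjusted p = 0.121), Ntf3 (0.125) and Olfm2 (0.0650) were lost, and without hyperplasia 1 those of Pparg (0.108) and Ntf3 (0.0535). Of the 11 immediate-early and heat shock genes, 3 fell (Jun, Ier2 and Hspa1a) and 0 rose in tumor 1, and the 11 summed to 52243 and 48429 CPM in hyperplasia and 27030 and 15423 CPM in tumor. The 9 immune markers summed to 13.3 and 9.55 CPM in hyperplasia, 44.6 in tumor 1 and 8.33 in tumor 2. Cd3e, a T cell gene, was called higher, with 8.59 and 3.73 CPM in hyperplasia, 40.9 in tumor 1 and 1.19 in tumor 2 (log2 fold change 3.18, adjusted p = 0.00467), and was not called with tumor 2 kept (adjusted p = 0.463). The share of cells above the Fabp4 threshold in tumor 1 was also not told from that of its Epcam-bearing cells. The part of these in the other values was not tested.

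Cd36 was 99.9 and 154 CPM in hyperplasia, 17.6 in tumor 1 and 13.1 in tumor 2 (log2 fold change -2.73, SE 0.44, adjusted p = 0.0113), so both tumors lay below both hyperplasia libraries. Sparcl1 was 1349 and 2130.5 CPM in hyperplasia, 169.7 in tumor 1 and 389 in tumor 2 (log2 fold change -3.26, adjusted p = 0.00129). Ntf3 was 51.9 and 50.7 CPM in hyperplasia, 1.26 in tumor 1 and 3.57 in tumor 2 (adjusted p = 0.0335), with 2 and 3 UMIs in the tumors, so no fold is given. Both tumors were lower for these genes too. In the fit with the mouse as a block and tumor 2 kept, the log2 fold changes were -2.89 (adjusted p = 0.00819) for Cd36 and -2.76 (adjusted p = 0.00226) for Sparcl1. Within Fabp4-high cells Pparg did not hold across both tumors. It was 60.9 and 57.3 CPM in hyperplasia, 16.3 in tumor 1 and 70.2 in tumor 2. The log2 fold change was -1.76 (adjusted p = 0.0428) for tumor 1 alone, -0.98 (adjusted p = 0.246) with tumor 2 kept and -0.74 (adjusted p = 0.312) with the block in limma-voom. Col4a1 (2264 and 2558 CPM in hyperplasia, 1089 in tumor 1 and 2005 in tumor 2) and Col4a2 (1005 and 1121 CPM in hyperplasia, 476 in tumor 1 and 964 in tumor 2) likewise lost their call with tumor 2 kept (adjusted p = 0.120 and 0.173). Lpl was 3451 and 2978 CPM in hyperplasia, 1619 in tumor 1 and 2155 in tumor 2 (log2 fold change -0.92, adjusted p = 0.0595), and it passed with the block at -0.81 (adjusted p = 0.0457). Fibroblasts under the Pi16 limit without a Fabp4 UMI were lower in both tumors too. There Cd36 was 2.85 and 2.38 CPM in hyperplasia and 0.391 and 0.171 CPM in tumor 1 and 2. Lpl was 1366 and 1229.5 CPM against 432 and 205 CPM, and Pparg 19.9 and 20.01 CPM against 6.06 and 3.76 CPM. Lower levels in tumor were thus not particular to Fabp4-high cells for these genes.

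Of the 15 genes of fatty acid uptake, binding and release, Cd36 fell and Fabp5 rose. Fabp5 was 39.03 and 23.9 CPM in hyperplasia, 102 in tumor 1 and 95.2 in tumor 2 (log2 fold change 1.87, adjusted p = 0.0243), opposite to Cd36 in both tumors. It was 9.23 and 8.26 CPM in remaining fibroblasts of hyperplasia and 32.6 and 51.8 CPM in those of the tumors. In the insulin and growth factor list Slc2a1, the basal glucose transporter, rose, with 2.73 and 5.22 CPM in hyperplasia, 32.1 in tumor 1 and 25.00 in tumor 2 (log2 fold change 2.92, adjusted p = 0.0112). So did Igf1, with 131 and 86.8 CPM in hyperplasia, 306 in tumor 1 and 257 in tumor 2, and Igfbp4, with 246 and 253 CPM in hyperplasia, 895 in tumor 1 and 523 in tumor 2. Insig1, a brake on cholesterol synthesis, and Tsc22d3 fell. Tsc22d3 was 204 and 337 CPM in hyperplasia, 39.6 in tumor 1 and 32.1 in tumor 2 (log2 fold change -2.66, adjusted p = 0.00431).

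Of 7 myofibroblastic genes tested, 5 rose (Tpm2, Tagln, Col12a1, Cthrc1 and Acta2) and 0 fell, with a median of 3.99. Acta2 was 0.781 and 1.19 CPM in hyperplasia, 37.7 in tumor 1 and 337 in tumor 2 (log2 fold change 5.09, adjusted p = 0.00313). Tagln, a contractile actin-binding protein, was 2.34 and 1.34 CPM in hyperplasia, 59.7 in tumor 1 and 420.2 in tumor 2 (log2 fold change 5.27, adjusted p = 0.00121). With tumor 2 kept the adjusted p of Acta2 was 0.0999 in limma-voom and with the mouse block 0.00351. Cthrc1, a secreted protein of collagen-producing cells, was 24.2 and 11.3 CPM in hyperplasia, 253 in tumor 1 and 129.8 in tumor 2 (log2 fold change 4.15, adjusted p = 0.00119). The level of Acta2 in tumor 1 Fabp4-high cells lay below the puberty and adult values (86.6 and 70.8 CPM), and the remaining fibroblasts of the tumors held more of it (231 and 701 CPM). Myh11 and Des, which define smooth muscle, were at 0 in the Fabp4-high cells of both tumors, and the 8 pericyte and smooth muscle genes summed to 25.1 and 53.6 CPM in tumor and 72.99 and 51.8 CPM in hyperplasia. A UMI of Myh11, Des, Mcam or Cnn1 was held by 0 Fabp4-high cells of tumor 1 and 5 of 41 of tumor 2 (12.2%). In the remaining fibroblasts of tumor 2 this share was 12.2% too. Lox was 402 and 396 CPM in hyperplasia, 1158 in tumor 1 and 469 in tumor 2, with tumor 2 closer to hyperplasia than tumor 1, and its call was lost with tumor 2 kept (adjusted p = 0.268). Mki67 was at 0 in both hyperplasia libraries and 20.7 and 106 CPM in tumor 1 and 2 (adjusted p = 0.265 in limma-voom for tumor 1). The 8 cycling genes summed to 2.34 and 2.24 CPM in hyperplasia and 93.03 and 996 CPM in tumor 1 and 2.

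The largest rises past the test in tumor 1 were Hbb-bs, Calca, Chl1, Hba-a1, Cemip, Csf3, Ltbp2 and Hbb-bt. Calca, which encodes calcitonin and its gene-related peptide, was 0 and 0 CPM in hyperplasia, 99.3 in tumor 1 and 35.7 in tumor 2. Chl1, a cell adhesion molecule, was 0 and 0 CPM in hyperplasia, 91.1 in tumor 1 and 79.8 in tumor 2. Cemip, a hyaluronan-degrading protein, was 0.390 and 0.298 CPM in hyperplasia, 201 in tumor 1 and 25.00 in tumor 2. Both tumors were higher for these 3, and without hyperplasia 2 their adjusted p was 0.0763, 0.148 and 0.0530. Hbb-bs was 0 and 0 CPM in hyperplasia, 358 in tumor 1 and 2.38 in tumor 2, and Hba-a1 and Hbb-bt were 159.7 and 42.1 CPM in tumor 1 and 0 CPM in tumor 2. These are hemoglobin genes of red blood cells, with copies that share reads. The remaining fibroblasts of tumor 1 held 77.96 CPM of Hbb-bs. Csf3 (adjusted p = 0.0763), Ltbp2 (0.0682, with a log2 fold change of 5.64), Hba-a1 (0.0547) and Hbb-bt (0.0803) also lost their call without hyperplasia 2. The part of free RNA in the hemoglobin values was not tested. The largest falls were Hoxc10, Ntf3, Olfm2, Sparcl1, Vtn, Smoc2, Tgfbi and Ndrg2. The calls of Vtn (adjusted p = 0.0580 and 0.157) and Ndrg2 (0.0526 and 0.111) were lost without hyperplasia 1 and without hyperplasia 2. Hoxc10, a homeobox gene of posterior body position, was 36.3 and 41.9 CPM in hyperplasia, 0 in tumor 1 and 1.19 in tumor 2 (adjusted p = 0.0338, and 0.126 without hyperplasia 2). It was 25.4 and 38.3 CPM in remaining fibroblasts of hyperplasia and 0.00991 and 0.115 CPM in those of the tumors. Smoc2, a matrix protein of the SPARC family, was 757 and 941 CPM in hyperplasia, 93.7 in tumor 1 and 211 in tumor 2 (log2 fold change -3.11, adjusted p = 0.00106).

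**Figure D5:**
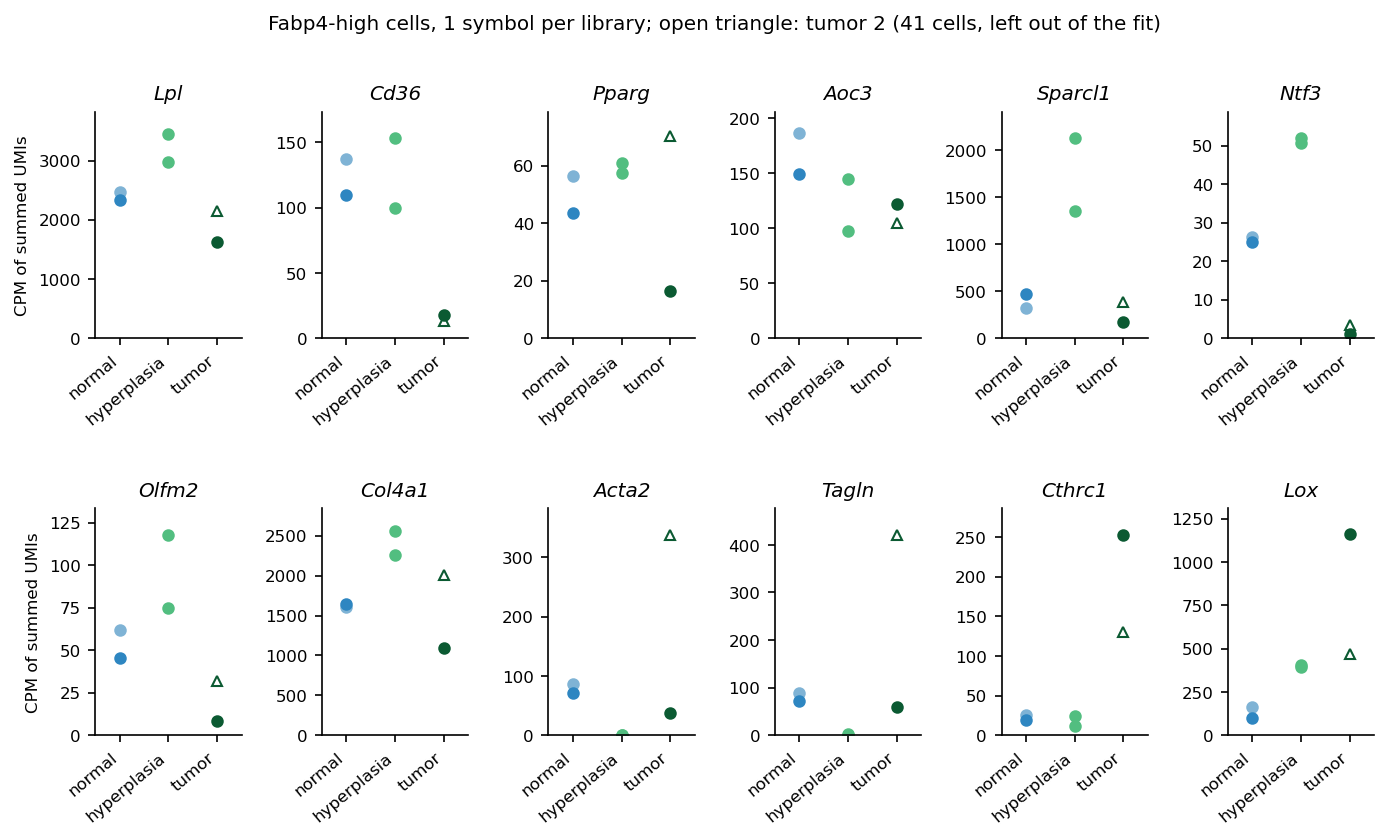
CPM of summed UMIs (y axis) of 12 genes in Fabp4-high cells of the normal (puberty and adult), hyperplasia and tumor libraries (x axis), 1 symbol per library, with tumor 2 (41 cells) as an open triangle. Cd36, Sparcl1 and Ntf3 are low in both tumors, Pparg is 16.3 CPM in tumor 1 and 70.2 CPM in tumor 2, and Acta2 and Tagln, near 0 in hyperplasia, are present in normal and tumor libraries.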

How the data were processed

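The deposited files held raw UMI counts per gene and cell barcode, filtered for cells, which the authors made from 3′ droplet libraries. Per the submitters' processing notes, Cell Ranger 6.1.2 and the mm10 genome were used. Barcodes passing the limits given in the report were kept, with no doublet caller in the main analysis. UMIs were summed per library and cell class (Fabp4-high or remaining), so a library was the replicate. Libraries with at least 50 Fabp4-high cells entered ratios and fits.

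Hormone effects were tested with edgeR 4.0.16 (quasi-likelihood, TMM normalization, filterByExpr), the difference between classes as an interaction with the library as a block, and the raGFP-Wnt1 comparisons with limma-voom (limma 3.58.1) in R 4.3.3, at a Benjamini-Hochberg adjusted p of 0.05. DESeq2 1.42.0, Scrublet in scanpy 1.11.5, thinning, other thresholds and leaving out each library were alternatives. Fits were tested on simulated data. Hyperplasia and tumor of the same number are from 1 mouse, and deviations of the first pair from the group means correlated over 8428 genes (r = 0.364).

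Beside the genes of fixed lists, the genes named were the 15 highest and 10 lowest median ratios, the 6 largest called differences in each direction between classes, the 8 largest called changes in each direction in the raGFP-Wnt1 comparisons, and the 10 genes with the largest ratio between stages. The cells and the gene lists were chosen with earlier results of these data known.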

Additional observations from a re-analysis of the deposited data

Results flagged for a closer look

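The hormone effect differed between Fabp4-high and remaining fibroblasts by a test of the difference itself for 226 genes (edgeR quasi-likelihood interaction, Benjamini-Hochberg adjusted p under 0.05). The largest positive differences in the log2 effect, Fabp4-high minus remaining, were 3.59 for Dmkn, 3.04 for Tnc, 3.0 for Igfbp2, 2.94 for Sema3d, 2.81 for Xirp1 and 2.76 for Ntn4. The value of Dmkn rests on few UMIs in the Fabp4-high cells with placebo, so its size is uncertain. Dmkn and Igfbp2 were not called without the cells that held a smooth muscle UMI. The largest negative differences were -2.73 for H2-Q6, -2.37 for Tgm2, -2.28 for Mmp11, -2.24 for Ifi44, -2.19 for H2-Q7 and -1.86 for Lipg. Xirp1, a gene of striated muscle, was 2.30 and 4.31 CPM with placebo and 11.4 and 29.2 CPM with MPA+E in Fabp4-high cells, against 0.273 to 0.975 CPM in the remaining fibroblasts, and could not be tested without the cells that held a smooth muscle UMI. Tgm2 was 23.8 and 42.2 CPM with placebo and 25.1 and 104 CPM with MPA+E in Fabp4-high cells, where the arms overlapped, and 21.8 and 29.3 CPM against 186 and 284 CPM in the remaining fibroblasts, where they did not.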

How the results depend on the processing

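The share stayed lower with MPA+E than placebo and in tumor than hyperplasia, with the libraries apart, under each alternative, while pregnancy rose from 7.67 to 10.96% in cells with at least 4000 UMIs and to 11.7% when these were thinned, and involution fell from 8.35 to 4.16% at 10 Fabp4 UMIs. Against remaining fibroblasts with no Pi16 UMI, 24 genes were higher and 51 lower, and Aldh1a3 and Limch1 reversed to 0.089 and 0.33; leaving out each library gave 52 to 61 and 128 to 145. For the hormone effect in Fabp4-high cells, genes called higher and lower were 11 and 1 with no filter beyond 1 UMI, 136 and 21 with DESeq2, 2 and 0 under the stricter exclusion, 1 and 0 without smooth muscle UMIs, and 0 to 347 and 0 to 53 leaving out each library. A replicate block on the shared placebo and MPA+E numbers, which the labels do not tie to a shared animal or day, gave 368 and 210 in Fabp4-high cells and 1083 and 1035 in the remaining ones (r = 0.534 and 0.629 between same-numbered deviations, 2 pairs). Leaving out each library gave 0 to 589 and 0 to 431 in the remaining ones.

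The difference between classes gave 467 and 348 genes with no filter, 57 and 60 without smooth muscle UMIs, and 151 to 663 and 85 to 453 leaving out each library. Leaving out 1 library moved the difference from -0.62 to 0.073 for Lpl, from -0.048 to 0.37 for Pparg and from -0.49 to 0.038 for Fabp4, none of them called. The classes were set by the Fabp4 level itself, so the Fabp4 values cannot test its hormone response and no conclusion is drawn from them. Hyperplasia against normal gave 629 lower genes with tumor 2 kept, and 352 to 1216 higher and 164 to 1537 lower leaving out each library. Its value for Cd36, never called, was -0.29 to 0.28 leaving out each library, 0.28 at 10 Fabp4 UMIs per 10000, 0.0012 with edgeR and 0.014 with tumor 2 kept.

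Tumor against hyperplasia gave 185 lower genes with no filter, 195 with edgeR and 189 with tumor 2 kept. On the raGFP-Wnt1 libraries alone with tumor 2 kept it gave 810 and 504 with a replicate block on the mouse and 154 and 97 without it. Leaving out each library gave 65 to 986 higher and 28 to 335 lower. The threshold of 10 Fabp4 UMIs was not run there for want of cells, nor the mouse block without tumor 2. The causes of these changes were not tested. Tumor 2 rests on 41 Fabp4-high cells.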
